A study of Homo sapiens with 6 samples.

Results

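Guanine-rich DNA and RNA can fold into G-quadruplexes, stacked squares of guanines that form on telomere repeats, in promoters and in transcripts. Helicases that unwind them let replication forks, telomerase and ribosomes pass, and loss of several of them causes inherited disorders of genome instability or of short telomeres. The 10 genes described here encode helicases with this activity or of families known for it, and were taken by symbol from the deposited table of 33706 genes, which holds all 10. They comprise WRN, BLM, RECQL and RECQL4 of the RecQ family, BRIP1, RTEL1 and DDX11 of the family whose members carry an iron-sulphur cluster, PIF1, and the DEAH-box helicases DHX36 and DHX9. The first 8 act mainly on DNA, DHX36 on both DNA and RNA quadruplexes, and DHX9 on RNA and on hybrids of RNA and DNA.

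RNA was sequenced from 6 cultures of ES2, a human ovarian cancer line, after 7 days, with 1 library per group. The groups were R, TR and GR, which all carry R, and Control, T and G without it. Control received no drug, G is given in the labels as G4, and TR and GR are read here as T with R and G with R. The series concerns a T-oligo, an oligonucleotide modelled on telomere DNA, and RHPS4, a ligand that binds G-quadruplexes, but the labels do not spell out which letter stands for which agent, so the letters are kept. The labels do not give a dose, or say whether the cultures were set up separately.

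Library totals ran from 73213048 to 83976498 counts. All titles give ES2, while the source names of R, TR, GR and G give SKOV3, another ovarian cancer line. ERBB2, amplified in SKOV3, had a level of at most 0.721 FPKM in any library. CDKN2A, the other gene chosen to check the line, stood at 134, 146 and 99 FPKM in R, TR and GR. In Control, T and G it stood at 98.3, 83.7 and 74.4 FPKM. Which line each library came from was not tested further. FPKM, fragments counted per length of transcript and per library depth, is the scale of every level given here. Transcripts of the mitochondrial genome took 0.351%, 0.474% and 0.893% of the counts in R, TR and GR, against 6.98%, 5.44% and 6.17% in Control, T and G. Of 7 leukocyte and endothelial markers 6 were listed, and their summed level was 50.3, 60.3 and 29.5 FPKM in R, TR and GR, against 74.5, 76.5 and 53.3 FPKM in Control, T and G. Nearly all of it was CD68, a lysosomal protein of macrophages and other cells, and CDH5, an endothelial cadherin, while PTPRC, PECAM1, VWF and CD79A stayed under 0.2 FPKM in every library. The part of these markers and of the mitochondrial share in the results was not tested.

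The promoters are shown first because RHPS4 binds folded guanine-rich DNA. RefSeq windows (GRCh38.p14) from 250 bases before to 50 after the transcription start matched 8 of the 10 genes, with 10 windows in all because DDX11 and RTEL1 have 2 each. A quadruplex run motif was searched on both strands as 4 runs of at least 3 G, separated by 1 to 7 bases of any kind. It occurred in 3 of the 10 windows, those of BRIP1, DHX9 and 1 of RTEL1, and in 25% of 35097 windows of the same length over all genes. The motif TTTGAA, an element of many cell cycle promoters, occurred in the windows of PIF1 and BRIP1 and in 15.2% of all windows. Of the E2F-type motifs, TTTCCCGC occurred in 1 window of DDX11 and in 1.63% of all windows, and TTTGGCGC in none of the 10 and in 0.652% of all windows. The windows of BLM, DHX36 and RECQL held none of these motifs. The 3 windows with the run motif, that of PIF1 and, for comparison, that of BLM are printed on the coding strand, with the first match of each motif in capitals. Further run motifs that overlap the capitals in BRIP1 and RTEL1 reach into the lower-case letters after them. In DHX9 the capitals are the reverse complement of a run motif on the other strand, and in BRIP1 the first capitals are the reverse complement of TTTGAA. A match describes the letters and is not evidence of a folded structure or a bound factor.
BRIP1 (chr17:61863479-61863778, minus strand): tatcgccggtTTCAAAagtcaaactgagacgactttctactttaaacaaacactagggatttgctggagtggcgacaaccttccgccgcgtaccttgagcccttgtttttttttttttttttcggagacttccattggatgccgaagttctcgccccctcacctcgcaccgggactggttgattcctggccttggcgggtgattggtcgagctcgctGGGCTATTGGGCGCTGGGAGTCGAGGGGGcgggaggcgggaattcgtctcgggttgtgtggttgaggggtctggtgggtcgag
DHX9 (chr1:182839097-182839396, plus strand): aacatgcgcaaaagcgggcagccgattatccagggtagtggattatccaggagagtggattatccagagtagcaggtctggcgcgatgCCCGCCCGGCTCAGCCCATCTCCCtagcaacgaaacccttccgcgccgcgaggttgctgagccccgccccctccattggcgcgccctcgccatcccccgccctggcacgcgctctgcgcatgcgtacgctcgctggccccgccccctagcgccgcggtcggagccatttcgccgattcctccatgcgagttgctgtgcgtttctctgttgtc
RTEL1 (chr20:63657560-63657859, plus strand): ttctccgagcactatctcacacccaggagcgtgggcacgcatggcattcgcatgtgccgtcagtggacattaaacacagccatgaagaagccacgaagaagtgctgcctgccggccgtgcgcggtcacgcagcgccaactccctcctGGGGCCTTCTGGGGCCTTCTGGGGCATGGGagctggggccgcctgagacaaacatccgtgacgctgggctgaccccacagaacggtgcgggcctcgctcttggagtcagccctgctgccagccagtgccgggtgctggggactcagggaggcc
PIF1 (chr15:64825598-64825897, minus strand): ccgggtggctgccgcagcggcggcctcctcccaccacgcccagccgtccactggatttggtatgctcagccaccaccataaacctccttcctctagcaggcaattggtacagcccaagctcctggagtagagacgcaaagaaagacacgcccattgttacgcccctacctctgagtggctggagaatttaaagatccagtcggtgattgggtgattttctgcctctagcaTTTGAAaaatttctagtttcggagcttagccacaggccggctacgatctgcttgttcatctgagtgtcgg
BLM (chr15:90717096-90717395, plus strand): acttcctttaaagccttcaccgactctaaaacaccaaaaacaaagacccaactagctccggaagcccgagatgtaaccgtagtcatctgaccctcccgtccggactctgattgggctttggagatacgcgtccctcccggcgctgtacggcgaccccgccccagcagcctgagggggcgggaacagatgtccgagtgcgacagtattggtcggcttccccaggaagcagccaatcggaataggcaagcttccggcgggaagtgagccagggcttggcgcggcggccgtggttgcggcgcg

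Among the 6 libraries the 10 genes differed widely in level. RECQL and DHX9 were the most abundant, at 17.2 to 37.1 and 12.6 to 30.0 FPKM. RECQL4 followed at 6.56 to 22.3 FPKM, then DDX11 at 3.67 to 11.3, DHX36 at 2.58 to 8.32 and PIF1 at 2.16 to 5.79 FPKM. WRN lay at 1.17 to 4.69, BLM at 0.650 to 3.40, RTEL1 at 1.14 to 2.17 and BRIP1 at 0.201 to 1.87 FPKM, the lowest of the set. The ranges of neighbours in this order overlap. The highest library exceeded the lowest by at least 2-fold for 9 of the 10 genes, from 2.15-fold for RECQL to 9.3-fold for BRIP1, and by 1.91-fold for RTEL1. How many of all genes spanned as much was not counted, so this is not a trait of the set. TR was the lowest of the 6 libraries for 7 members, a position it held for 21.1% of the 13259 genes that reached 1 FPKM in some library. T was the lowest for 2 members and 17.8% of those genes. G was the highest for 5 members and 21.6% of those genes, and T for 2 members and 24.6%. In bulk RNA, fewer cells of a kind and less RNA per cell cannot be told apart. With FPKM rescaled by median-ratio size factors TR was lowest for 6 members, T lowest for 3 and G highest for 3. The shares of all genes above are for deposited FPKM and were not counted on that scale.

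**Figure D1:**
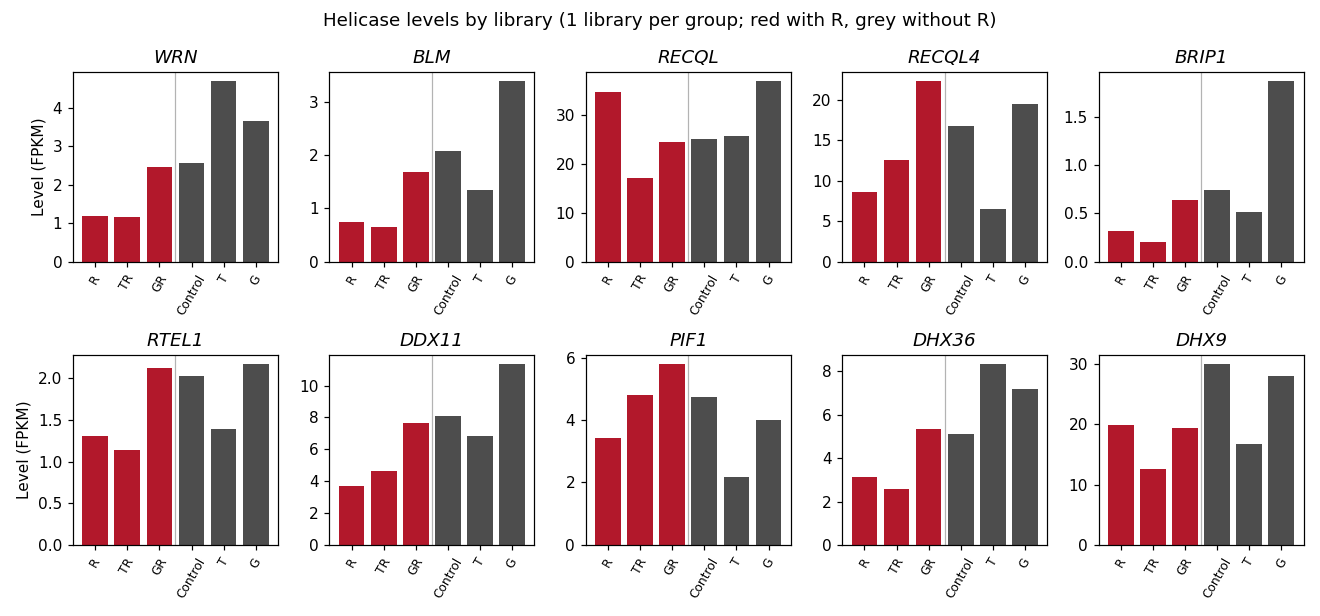
Level of each helicase gene in FPKM in each of the 6 libraries, 1 bar per library, with R, TR and GR in red and Control, T and G in grey. WRN, BLM, BRIP1 and DHX36 are lowest in R and TR, while RECQL4 and PIF1 are lowest in T.

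The comparison of R asks which helicases differ with R whether T, G or neither is present. BRIP1, WRN and BLM had the lowest values for R, but no member passed the test across backgrounds. The test was an additive edgeR quasi-likelihood model of R, T and G on the counts, adjusted by the Benjamini-Hochberg method over 20922 genes, and it called 2.5% of them for R, 1.19% higher and 1.31% lower. Of the 10 members 0 were called, and 5 had an unadjusted p under 0.05, all lower with R. That share of all genes was 14.6% lower and 12.6% higher. DESeq2 called 4 members lower, BRIP1, BLM, WRN and DHX36, where it called 3664 genes in all, 1958 lower and 1706 higher. DESeq2 was run without the edgeR filter on low counts, and the share of its tested genes was not computed. Limma on log2(FPKM + 1) called WRN and BLM lower, among 1810 of 13259 genes, 1175 lower and 635 higher. The model leaves 2 residual degrees of freedom, so its p-values measure only the departure from additivity between 6 libraries. The median log2 fold change of the members for R was -0.43, beside -0.06 for all genes tested. By source name only G and GR share a cell line label while differing in R. With that label as a term the log2 fold change was -1.46 for BRIP1, -0.93 for BLM and -0.50 for WRN (edgeR adjusted p = 0.726, 1 and 1). That term leaves fewer residual degrees of freedom than the main model.

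BRIP1, the partner helicase of BRCA1 that is mutated in a form of Fanconi anaemia (ENSG00000136492, chromosome 17, 61679139 to 61863559, minus strand), stood at 0.320, 0.201 and 0.641 FPKM in R, TR and GR, against 0.746, 0.510 and 1.87 FPKM in Control, T and G. These rest on 562, 339 and 1133 counts with R and 1264, 788 and 3094 counts without it. Each library with R was below its own partner, although GR lay above T, so the groups overlap. The FPKM ratio was 0.428 in R against Control, 0.395 in TR against T and 0.342 in GR against G. Across backgrounds the log2 fold change for R was -1.17 (SE 0.25, edgeR adjusted p = 0.052). With a GC content and length trend removed it was -0.82 (edgeR adjusted p = 0.0848), and the ratio of TR against T then turned to 0.20 on the log2(FPKM + 1) scale, against -0.33 as deposited.

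BLM, the RecQ helicase lost in Bloom syndrome (ENSG00000197299, chromosome 15, 90717346 to 90816166, plus strand), stood at 0.739, 0.650 and 1.68 FPKM in R, TR and GR, against 2.07, 1.35 and 3.40 FPKM in Control, T and G. The order of its 6 libraries was that of BRIP1, with G highest and TR lowest. Its FPKM ratio was 0.356 in R against Control, 0.482 in TR against T and 0.495 in GR against G. Across backgrounds its log2 fold change for R was -0.98 (SE 0.25, edgeR adjusted p = 0.0678). With the GC content and length trend removed it was -0.76 (adjusted p = 0.106), and the log2(FPKM + 1) ratio of TR against T was -0.10 in place of -0.51. BRIP1 and BLM were the 2 members at least 2-fold lower by FPKM in all 3 pairs, as were 3.61% of 13259 genes, a count made after the values were seen.

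WRN, the RecQ helicase and exonuclease lost in Werner syndrome (ENSG00000165392, chromosome 8, 31033788 to 31176138, plus strand), stood at 1.19, 1.17 and 2.45 FPKM in R, TR and GR, against 2.55, 4.69 and 3.66 FPKM in Control, T and G. It was the 1 member of 10 whose libraries with R all lay below all libraries without it, by a narrow gap between GR and Control. Over all genes 18.7% had such a gap. Unlike BLM and BRIP1, WRN was highest in T. Its FPKM ratio was 0.249 in TR against T, 0.468 in R against Control and 0.668 in GR against G. The log2 fold change for R was -1.02 (SE 0.29, edgeR adjusted p = 0.0766). Without G or without GR, which both remove that pair, WRN was called lower at -1.28, with edgeR adjusted p of 0.0317 and 0.0398. Without TR or without T it was -0.69, with adjusted p of 0.363 and 0.375, and with the GC content and length trend removed -0.73 (0.0984).

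DHX36, which binds quadruplexes tightly and resolves them in mRNA and DNA (ENSG00000174953, chromosome 3, 154272546 to 154324487, minus strand), had a pattern close to that of WRN. It stood at 3.12, 2.58 and 5.34 FPKM in R, TR and GR, against 5.11, 8.32 and 7.17 FPKM in Control, T and G. T was its highest library and TR its lowest, and GR lay slightly above Control. The log2 fold change for R was -0.74 (SE 0.26, edgeR adjusted p = 0.124). It was -0.42 without TR, -0.43 without T, -0.42 with the GC content and length trend removed and -0.35 with the source-name cell line as a term.

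DDX11, the helicase of sister chromatid cohesion (ENSG00000013573, chromosome 12, 31073860 to 31104791, plus strand), stood at 3.67, 4.62 and 7.65 FPKM in R, TR and GR, against 8.08, 6.81 and 11.3 FPKM in Control, T and G. Its log2 fold change for R was -0.55 (SE 0.23, edgeR adjusted p = 0.173), and -0.80 with the GC content and length trend removed (edgeR adjusted p = 0.055). DDX11 has a near-identical pseudogene copy, DDX12P, so its reads are uncertain. DDX12P took 664, 574 and 1286 counts in R, TR and GR and 985, 589 and 2073 in Control, T and G, and DDX11 held from 79.4% (G, Wilson interval 78.6% to 80.1%) to 88.3% (T, 87.4% to 89.2%) of the counts of the pair. The summed counts of both gave -0.52 for R, and DDX11 alone had -0.36 without R or without Control.

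DHX9, an RNA helicase also active on hybrids of RNA and DNA (ENSG00000135829, chromosome 1, 182839347 to 182887982, plus strand), was lower with R in each pair. It stood at 19.9, 12.6 and 19.4 FPKM in R, TR and GR, against 30.0, 16.7 and 28.0 FPKM in Control, T and G, ratios of 0.664, 0.752 and 0.692. Its log2 fold change for R was -0.31 (SE 0.21, edgeR adjusted p = 0.384), and -0.17 with the GC content and length trend removed. That removal left log2 ratios of -0.50 in R against Control, -0.15 in TR against T and -0.40 in GR against G.

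RECQL4, RECQL and PIF1 had no common direction with R. RECQL4, which takes part in replication initiation and is mutated in Rothmund-Thomson syndrome (ENSG00000160957, chromosome 8, 144511288 to 144517845, minus strand), stood at 8.55, 12.5 and 22.3 FPKM in R, TR and GR, against 16.8, 6.56 and 19.5 FPKM in Control, T and G. It was lower with R beside Control and higher with R beside T. PIF1, a helicase of telomeres and mitochondrial DNA (ENSG00000140451, chromosome 15, 64815632 to 64825668, minus strand), showed the same order of signs, at 3.41, 4.79 and 5.79 FPKM in R, TR and GR, against 4.74, 2.16 and 3.99 FPKM in Control, T and G. RECQL, an abundant RecQ helicase that restores reversed replication forks (ENSG00000004700, chromosome 12, 21468910 to 21501669, minus strand), ran the other way, at 34.8, 17.2 and 24.5 FPKM in R, TR and GR, against 25.3, 25.7 and 37.1 FPKM in Control, T and G. Their log2 fold changes for R were 0.25 (SE 0.36) for RECQL4, 0.60 (SE 0.34) for PIF1 and -0.04 (SE 0.28) for RECQL.

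**Figure D2:**
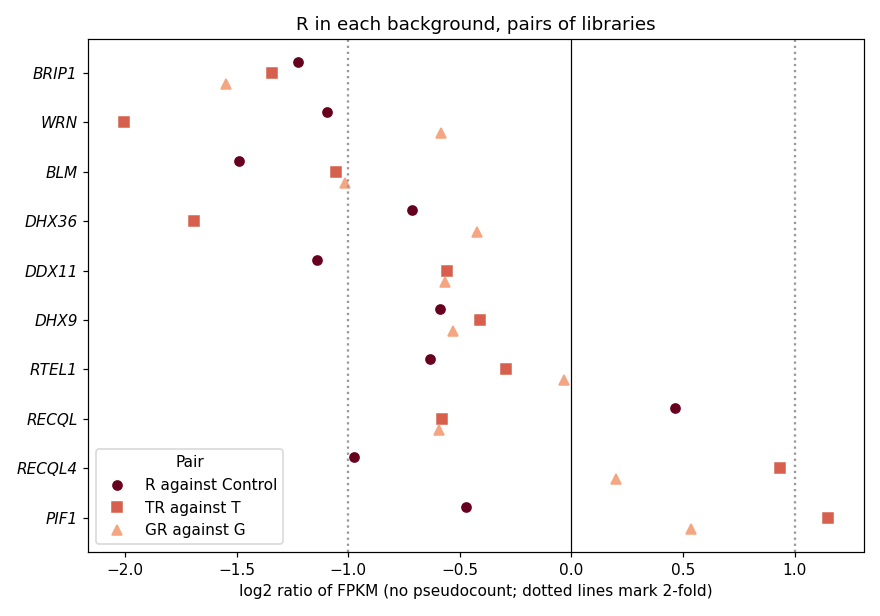
The log2 ratio of FPKM with R over its partner without R, without a pseudocount, for each helicase gene in the 3 pairs of libraries, which share no library. BRIP1 and BLM lie beyond 2-fold lower in all 3 pairs, and RECQL, RECQL4 and PIF1 have pairs on both sides of 0.

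By direction alone, 7 of 10 members were lower with R in all 3 pairs, WRN, BLM, BRIP1, RTEL1, DHX36, DHX9 and DDX11, beside 34.9% of 13259 genes. The median log2 ratio of all genes was -0.13 in R against Control and -0.17 in TR against T on the deposited FPKM, and 0.04 and 0.06 when FPKM was rescaled by median-ratio size factors. With that rescaling 6 members stayed lower in all 3 pairs, all but RTEL1, beside 25.1% of genes. With the GC content and length trend removed it was also 6, all but BRIP1, beside 34.8% of 12879 genes. The transcripts of BRIP1, WRN, DHX36, BLM and DHX9 have 37.5%, 38.9%, 38.5%, 41.2% and 43.9% GC, and those of RTEL1, PIF1 and RECQL4 have 62.5%, 61.6% and 65.5%. RECQL, with the lowest GC content at 37.3%, had -0.04 for R, and DDX11, at 57.9% GC, had -0.55. Across 19694 genes, which are not independent, the log2 fold change for R had a Spearman correlation of 0.27 with GC content. The part of GC content in the lower levels of these members was not tested beyond that adjustment.

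RTEL1, the helicase that dismantles telomere loops (ENSG00000258366, chromosome 20, 63657810 to 63696253, plus strand), cannot be read on its own. It stood at 1.31, 1.14 and 2.12 FPKM in R, TR and GR, against 2.03, 1.39 and 2.17 FPKM in Control, T and G, a log2 fold change for R of -0.12 (SE 0.25, edgeR adjusted p = 0.795). Its row overlaps over 36954 bases, on the same strand, the readthrough gene RTEL1-TNFRSF6B, which joins it to the decoy receptor gene TNFRSF6B. RTEL1 held 7.06%, 5.61% and 15.1% of the counts of RTEL1 and the readthrough gene in R, TR and GR, against 7.25%, 4.13% and 8.66% in Control, T and G. The 95% Wilson intervals, which cover counting error only, were 6.65% to 7.5% in R, 5.25% to 5.99% in TR and 14.4% to 15.8% in GR, against 6.9% to 7.61% in Control, 3.88% to 4.4% in T and 8.26% to 9.08% in G. RTEL1-TNFRSF6B stood at 16.2, 18.2 and 11.2 FPKM in R, TR and GR, against 24.5, 30.6 and 21.6 FPKM in Control, T and G (log2 fold change -0.56, SE 0.22, edgeR adjusted p = 0.15). With both rows summed the log2 fold change for R was -0.52 (edgeR adjusted p = 0.164). TNFRSF6B, at the downstream end of the locus, was called higher with R (2.95, SE 0.58, edgeR adjusted p = 0.0461), at 91.5, 165 and 106 FPKM in R, TR and GR, against 23.3, 6.51 and 29.7 FPKM in Control, T and G. That call was lost without R or without Control (adjusted p of 0.0511 and 0.0836), with the GC content and length trend removed (0.0566), with no filter on low counts (0.208) and with the source-name cell line as a term (0.557). The TNFRSF6B call held with DESeq2 (adjusted p = 0.0062), limma (0.00717), median-ratio scaling (0.0456) and mitochondrial genes left out (0.049). It also held without TR or T, at a log2 fold change of 2.05, and without GR or G, at 3.58. The sources used here do not say how reads shared by the 3 rows were divided.

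**Figure D3:**
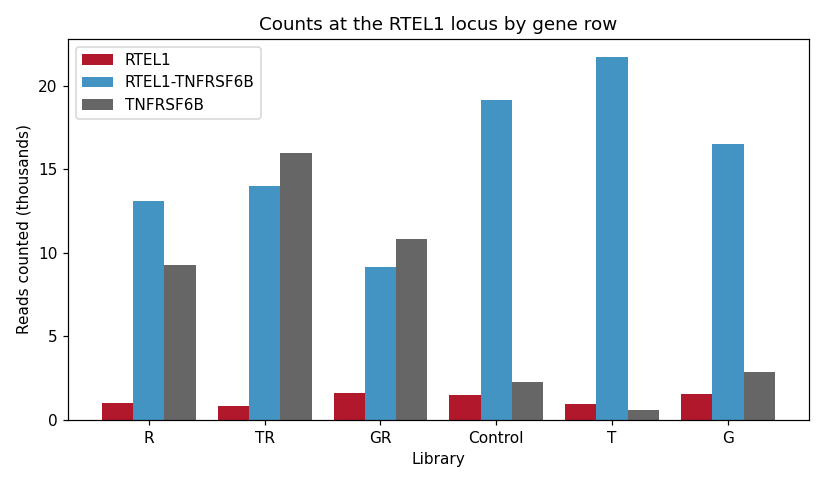
Reads counted for RTEL1, the readthrough gene RTEL1-TNFRSF6B and TNFRSF6B in each of the 6 libraries. The readthrough row holds more reads than the RTEL1 row in every library, and the TNFRSF6B row is higher in R, TR and GR than in Control, T and G.

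The comparison of T rests on the pairs T against Control and TR against R. Of the 10 members 0 were called by edgeR across backgrounds, 2 had an unadjusted p under 0.05, and DESeq2 and limma called 0. The test called 0.00478% of all genes for T, and the unadjusted p was under 0.05 for 2.65% with a higher and 1.02% with a lower level. The 2 members were DHX9 and BRIP1, both lower. DHX9 had 16.7 FPKM in T against 30.0 FPKM in Control, and 12.6 FPKM in TR against 19.9 FPKM in R (log2 fold change -0.87, SE 0.26, unadjusted p = 0.0101, edgeR adjusted p = 1). BRIP1 had a log2 fold change of -0.72 (SE 0.31, unadjusted p = 0.0444, edgeR adjusted p = 1). RECQL4, with 6.56 FPKM in T and 16.8 FPKM in Control, was the 1 member at least 2-fold lower in that pair on the log2(FPKM + 1) scale, and had 12.5 FPKM in TR and 8.55 FPKM in R. PIF1 likewise had 2.16 FPKM in T and 4.74 FPKM in Control, but 4.79 FPKM in TR and 3.41 FPKM in R. The median of the members for T was -0.51, beside 0.02 for all genes, with 8 of 10 below 0. The share of all genes below 0 for T was not counted. By pair, the median log2(FPKM + 1) ratio of the members was -0.28 in T against Control, beside 0.07 for all genes. In TR against R it was -0.09, beside 0.06.

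The comparison of G rests on the pairs G against Control and GR against R. Of the 10 members 0 were called by edgeR, 1 had an unadjusted p under 0.05, and DESeq2 and limma called 0, while edgeR called 0.0335% of all genes, 0.0239% higher and 0.00956% lower. The unadjusted p was under 0.05 for 7.38% of genes with a higher and 4.53% with a lower level. That 1 member was BRIP1, at 1.87 FPKM in G against 0.746 FPKM in Control and 0.641 FPKM in GR against 0.320 FPKM in R, ratios of 2.51 and 2.01 (log2 fold change 0.89, SE 0.31, edgeR adjusted p = 0.387). BLM had ratios of 1.64 in G against Control and 2.28 in GR against R (log2 fold change 0.66, SE 0.31, edgeR adjusted p = 0.432). RECQL4 was at least 2-fold higher on the log2(FPKM + 1) scale in GR against R, at 22.3 against 8.55 FPKM, and had 19.5 FPKM in G against 16.8 FPKM in Control. The median log2 ratio of all genes in GR against R was 0.22, and -0.05 with median-ratio size factors. The median of the members for G was 0.39, beside 0.09 for all genes, with 3 of 10 below 0. The share of all genes below 0 for G was not counted. G against Control and T against Control share the Control library, and GR against R and TR against R share R. The pair G against Control also differs in the source name's line, SKOV3 in G and ES2 in Control, so the label and G cannot be told apart there.

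Counts of members changed at least 2-fold in single pairs, on the log2(FPKM + 1) scale, were low throughout. They were 0 higher and 2 lower in TR against T, WRN at -1.39 and DHX36 at -1.38, beside 5.67% higher and 11.2% lower of the 13259 genes. In R against Control 0 of 10 passed, beside 2.68% higher and 6.61% lower, and in GR against G also 0, beside 1.3% and 2.07%. In T against Control 1 was lower, beside 2.4% higher and 2.3% lower, and in TR against R there were 0, beside 0.46% and 0.385%. In G against Control there were 0, beside 3.27% higher and 0.453% lower, and in GR against R 1 was higher, beside 6.21% higher and 1.09% lower. BRIP1, at under 2 FPKM in every library, is among those whose ratios the added 1 understates.

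**Figure D4:**
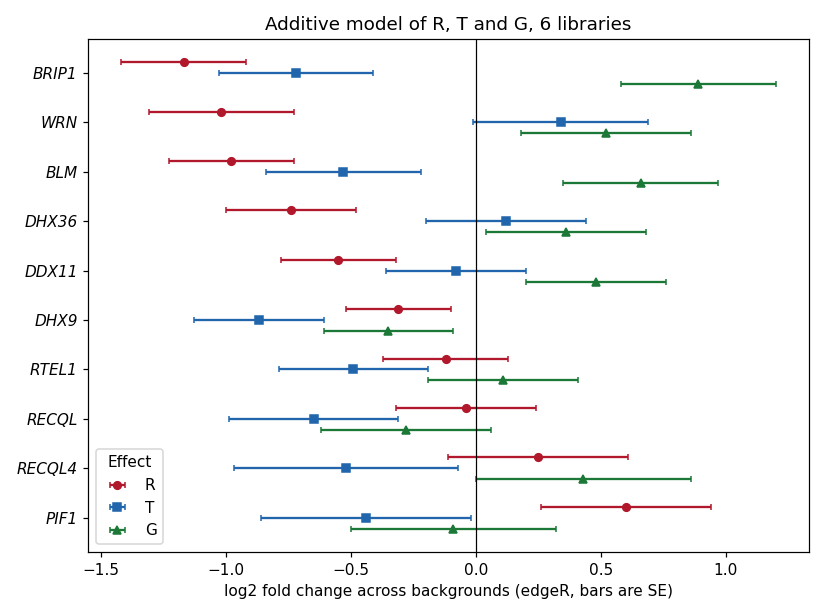
Log2 fold change of each helicase gene for R, T and G in the additive edgeR model of 6 libraries, with bars for the standard error. BRIP1, WRN and BLM lie lowest for R and DHX9 lowest for T, and no point passed the adjusted threshold.

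Several of these helicases are made mainly in dividing cells, so 20 proliferation markers were set beside them. Their summed level was 924, 927 and 1024 FPKM in R, TR and GR, against 868, 261 and 742 FPKM in Control, T and G. T stood apart by low proliferation markers, with 16 of 20 at least 2-fold lower in T against Control, and 15 of 20 were at least 2-fold higher in TR against T. In R against Control 0 of 20 were 2-fold higher, with a median log2 ratio of -0.03, and in GR against G 3 of 20, with a median of 0.17. Of the 20 markers 0 were called for R by edgeR and 11 had an unadjusted p under 0.05, beside 12.6% of all genes higher and 14.6% lower. Among the 11, MCM6 was lower, at -0.79, and the rest higher. The median log2 fold change of the 20 was 1.05, beside -0.43 for the helicases. FOXM1, which drives mitotic gene expression, and CDC20, which starts anaphase, had the values 1.64 (SE 0.48) and 1.78 (SE 0.44) for R without being called. The log2 ratio of FOXM1 was 2.77 in TR against T, 0.46 in R against Control and 0.95 in GR against G. DESeq2 called 10 markers higher and 1 lower, and limma 5 higher and 1 lower. RECQL4 and PIF1 were lowest in T, as the markers were, whereas WRN and DHX36 were highest in T. The part of proliferation in the helicase levels was not tested.

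**Figure D5:**
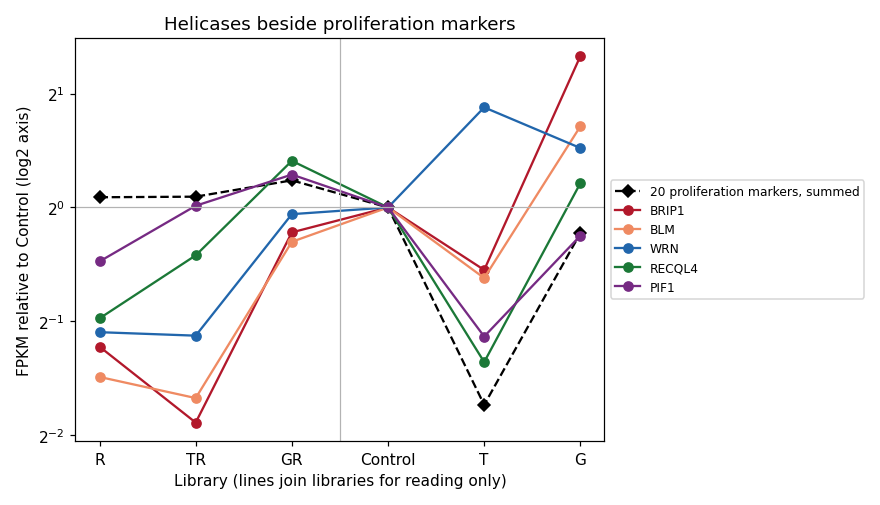
FPKM relative to Control, on a log2 axis, for BRIP1, BLM, WRN, RECQL4, PIF1 and the sum of 20 proliferation markers in the 6 libraries. In R and TR the markers stay near Control while BRIP1, BLM and WRN lie lower, and in T the markers, RECQL4 and PIF1 lie lower while WRN lies higher.

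Genes that work with these helicases were taken from lists made with earlier results of these data known. Of 15 partners 0 were called for R by edgeR and 3 had an unadjusted p under 0.05, all lower. Over all genes that p was found for 14.6% lower and 12.6% higher. The median log2 fold change of the partners was -0.28, while DESeq2 and limma each called 3 lower. BRCA1, which recruits BRIP1 to damaged DNA, stood at 0.763, 0.678 and 1.87 FPKM in R, TR and GR, against 2.12, 1.69 and 3.54 FPKM in Control, T and G (-1.03, SE 0.23, edgeR adjusted p = 0.0545). RMI1, a subunit of the complex in which BLM dissolves joined DNA molecules, had -0.90 (SE 0.26, edgeR adjusted p = 0.078), and TIPIN, a fork protection factor, -0.75 (SE 0.25). EXO1, a nuclease that acts with BLM in resection, had -1.04 for T (SE 0.45, unadjusted p = 0.0493, edgeR adjusted p = 1), with 1.60 FPKM in T and 5.51 FPKM in Control, but 3.01 FPKM in TR and 3.61 FPKM in R.

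Of 21 other DNA and RNA helicases edgeR called 1 lower for R and 0 higher, DESeq2 5 lower and 1 higher, and limma 4 lower. An unadjusted edgeR p under 0.05 was found for 8 of the 21, beside 14.6% of all genes lower and 12.6% higher. Among the 8, UPF1 (0.77) and IGHMBP2 (0.58) were higher with R and the rest lower. The median log2 fold change of the 21 was -0.35. HLTF, a fork remodelling factor, fell, with 7.71, 6.47 and 12.5 FPKM in R, TR and GR, against 20.1, 25.1 and 22.4 FPKM in Control, T and G. Its log2 fold change was -1.19 (SE 0.25, edgeR adjusted p = 0.0487). Its libraries with R all lay below all those without R, as in 18.7% of 13259 genes. The call was lost without R (adjusted p = 0.0799), Control (0.103), T (0.181) or TR (0.185), and with the GC content and length trend removed (0.0636), mitochondrial genes left out (0.0509), no filter on low counts (0.208) or the source-name cell line as a term (1). The HLTF call held with DESeq2 (adjusted p = 0.00027), limma (0.0112) and median-ratio scaling (0.0496). It also held without GR or G, at a log2 fold change of -1.40. HELQ, a repair helicase, had -0.90 (SE 0.31, edgeR adjusted p = 0.115).

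Among 14 DEAH-box relatives of DHX36 and DHX9, 0 were called for R and 3 had an unadjusted p under 0.05, while DESeq2 called 1 higher and 1 lower and limma 1 lower. For R, 14.6% of all genes had such a p with a lower and 12.6% with a higher level. DHX8, a splicing helicase, had 0.87 (SE 0.26) and DHX57 -0.85 (SE 0.27), in opposite directions. Of 10 genes of the iron-sulphur helicase ERCC2 and the cluster supply 0 were called for R by edgeR, 1 by DESeq2 and 0 by limma, 2 had an unadjusted p under 0.05, with a median of 0.26, and CIAO2B, a cluster targeting factor, had 0.81 (SE 0.22, edgeR adjusted p = 0.0719), above 0 where BRIP1 and DDX11 lay below. Of 20 quadruplex binding proteins 0 were called for R by edgeR and 6 had an unadjusted p under 0.05, while DESeq2 called 1 higher and 2 lower and limma 3 lower. Among the 6, YBX1 was higher with R, at 0.62, and the rest lower. EWSR1, an RNA-binding protein, had -0.73 (SE 0.23). For T and G none of these 5 lists had a member called by edgeR or limma, and DESeq2 called 1 quadruplex binding protein lower for G. An unadjusted edgeR p under 0.05 was found for 2 partners and 1 quadruplex binding protein with T. With G it was found for 1 partner, 1 cluster supply gene, 1 other helicase and 4 quadruplex binding proteins. Over all genes it was found for 2.65% higher and 1.02% lower with T, and for 7.38% and 4.53% with G. The lowest values among the quadruplex binding proteins were -0.99 (SE 0.29) for HNRNPA2B1 with T and -0.93 (SE 0.23) for YBX1 with G.

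The genes whose profile over the 6 libraries was nearest to a member were sought among 7700 genes that reached 5 FPKM in some library, by the root mean square difference of centred log2(FPKM + 1). It was 0.035 between WRN and GTF2H1, a subunit of the repair and transcription factor TFIIH, and 0.043 between DHX9 and SMC4, a condensin subunit. For DHX36 it was 0.044 with MTRR and 0.057 with ZNF621, which was also the third nearest to WRN at 0.063. BLM was nearest to SLFN11, a factor that blocks stressed replication forks, at 0.081 and to RBL1 at 0.082. BRIP1 was nearest to SLIT2 at 0.056, and POLD3, a subunit of DNA polymerase delta, stood at 0.076. RECQL4 was nearest to the histone gene H2AX at 0.157, DDX11 to CCDC9B at 0.065, PIF1 to MAP3K3 at 0.056 and RECQL to ARHGAP18 at 0.109. With 6 libraries and so many candidates, near profiles are a description only.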

How the data were processed

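RNA-seq of 6 libraries was analysed from the authors' deposited table. Its counts are whole reads per gene and its FPKM values are scaled to length and depth, per the file headers. The submitters' processing notes list StringTie 2.1.6, HISAT2 2.2.1, cutadapt 1.9, edgeR and DESeq2, without roles. Per the labels' protocols, oligo(dT)-selected RNA was made into strand-marked libraries. The sources used here name no build or annotation. GENCODE v29 holds 92.6% of the gene IDs, and 99.89% of these have coordinates overlapping its GRCh38 ones, so GRCh38 is used for the table's coordinates. No column was left unused.

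Groups came from the titles. Counts were fitted with edgeR 4.0.16 in R 4.3.3 (TMM, filterByExpr, quasi-likelihood test, Benjamini-Hochberg over 20922 genes, threshold 0.05) as R plus a second factor (none, T, G). Pairs of libraries have no test, and ratios with a 2-fold threshold are of FPKM + 1 unless said otherwise, which understates low genes. DESeq2 1.42.0 and limma 3.58.1 were alternatives. The fit was tested on simulated counts of 20922 genes, with 1 dispersion of 0.101 for all and 50 genes changed at each fold size. It recovered 16% of 2-fold, 86% of 4-fold and 100% of 8-fold changes for R, with 5 false calls. Most 2-fold changes were thus missed there, so 0 calls is not evidence of no change of that size. The labels mention no molecular identifiers, so intervals cover counting error only. P-values measure the spread between these libraries, which may be technical.

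Named genes are all members, the 3 genes of each list with the largest coefficient for R and 2 for T and G, some of which are not reported here, overlapping genes and nearest profiles. The members, lists and rules were chosen with earlier results of these data known. GC content and length came from the longest GENCODE v29 transcript.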

Additional observations from a re-analysis of the deposited data

Results flagged for a closer look

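Results are given here where 1 effect ran in opposite directions in different backgrounds and the 2 log2 ratios of FPKM + 1 lay at least 1 apart. With 1 library per group these differences were not tested. For RECQL4 the ratio was 0.84 in TR against T and -0.90 in R against Control, and equally 0.50 in TR against R but -1.24 in T against Control. For PIF1 it was 0.87 in TR against T and -0.38 in R against Control, and likewise 0.39 in TR against R but -0.86 in T against Control. For RECQL it was 0.45 in R against Control and -0.58 in GR against G, 0.03 in T against Control but -0.98 in TR against R, and 0.54 in G against Control and -0.49 in GR against R. The 2 statements for RECQL4, like those for PIF1 and the first and last of the 3 for RECQL, rest on the same 4 libraries and are 1 difference each. The summed proliferation markers, given with the helicase levels, were also lowest in T, and their part was not tested. With the GC content and length trend removed, the ratios of RECQL4 were 0.50 in TR against T and -0.89 in R against Control. Those of PIF1 were then 0.47 and -0.41 in the same pairs, and those of RECQL 0.44 in R against Control and -0.33 in GR against G, less than 1 apart. For T, RECQL then had -0.72 in TR against R and -0.14 in T against Control, of the same sign.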

How the results depend on the processing

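No paired analysis was possible because each group has 1 library, so no replicate number is shared. The additive model already sets each library with R beside its partner without R. The counts of genes called across backgrounds moved with the filter, the tool, the cell line term and the library left out. For R, 523 genes were called, against 24 with no filter on low counts, 82 with the source-name cell line as a term, 3664 by DESeq2, 1810 by limma and 66 to 2231 with 1 library left out. The members called for R were 0, against 4 by DESeq2, 2 by limma and 0 to 1 with 1 library left out, WRN being the 1. For T, 1 gene was called, against 0 with no filter, 42 with the cell line term, 25 by DESeq2, 3 by limma and 2 to 50 with 1 library left out. For G, 7 genes were called, against 0 with no filter, 354 with the cell line term, 413 by DESeq2, 30 by limma and 12 to 337 with 1 library left out. The members called for T and for G were 0 under every alternative run. The causes were not tested. With no filter 1 of the 24 calls for R was higher, against 248 of 523.

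Counts of members changed 2-fold in a pair moved with the pseudocount and scaling. With a pseudocount of 0.1 they were 4 in TR against T and 4 in R against Control, 1 in GR against G, 2 in T against Control, 1 in TR against R, 1 in G against Control and 3 in GR against R. With TMM-scaled CPM they were 4 in TR against T, 1 in R against Control, 1 in GR against G, 3 in T against Control, 1 in TR against R and 1 in G against Control. With median-ratio scaling they were 4 in TR against T, 1 in TR against R and 0 in GR against R, and with the GC content and length trend removed 0 in TR against T. The share of all genes changed 2-fold was not counted in these settings.

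Several members that did not pass the test changed sign. For R, RTEL1 was 0.04 with the cell line term and -0.19 to 0.04 with 1 library left out, RECQL was 0.30 with the GC content and length trend removed and -0.38 to 0.21, and RECQL4 was -0.17 and -0.24 to 0.77 in the same settings. For T, with 1 library left out, WRN ran from -0.20 to 0.79, PIF1 from -1.11 to 0.23, DHX36 from -0.38 to 0.56, DDX11 from -0.36 to 0.20 (0.03 by limma) and RECQL4 from -1.30 to 0.26. RTEL1 summed with its readthrough gene was 0.09 for T and -0.55 for G. For G, PIF1 ran from -0.67 to 0.62 (0.21 by limma, 0.01 with the trend removed), RECQL from -0.80 to 0.27 (0.02 by limma), RTEL1 from -0.12 to 0.33 and RECQL4 from -0.23 to 1.28. WRN, BLM, BRIP1, DHX36, DHX9 and DDX11 were below 0 for R under every alternative of the fit across backgrounds. In single pairs, BRIP1 in TR against T turned to 0.20 with the GC content and length trend removed. Counts of 339 for BRIP1 in TR and 436 for BLM in TR were the lowest behind any member.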
